A study of Mus musculus with 20 samples.

Results

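Hypoxia and glycolysis genes are here a set of 10 genes, chosen by name as targets of the hypoxia-inducible factors and described in 20 tumours: Vegfa, Slc2a1, Ldha, Pgk1, Bnip3, Ndrg1, Pdk1, Hk2, Egln3 and Ankrd37. They were found by their identifiers among 55335 genes of the deposited expression files, and all 10 were among the 13982 genes that reached 1 FPKM in at least 5 tumours and were tested, Egln3 with 1 FPKM or more in 18 tumours. FPKM, a fragment count divided by transcript length and library depth, allows levels of different genes to be set side by side. Tests were made on log2(FPKM + 1) with limma over all tested genes, and a gene is called changed where its Benjamini-Hochberg adjusted p is under 0.05.

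The tumours grew in mice from CT26 cells, which come from a colon carcinoma of a BALB/c mouse, and each of the 4 groups held 5 tumours: mutant cells with an antibody against PD-1 (mutant anti-PD-1), mutant cells with PBS (mutant PBS), vector cells with the antibody (vector anti-PD-1) and vector cells with PBS (vector PBS). PD-1 is an inhibitory receptor of T cells. The sample labels and the design text name POLE, the catalytic subunit of DNA polymerase epsilon, as the mutated gene, whereas the series title names CHEK2, a checkpoint kinase, so the group is called mutant here. The labels name no separate clones, no age and no time point, so effects of the mutation and of anything else in which the cell populations differ cannot be told apart. Mouse Pole averaged 3.94 ± 1.69 FPKM in mutant anti-PD-1, 5.22 ± 0.872 in mutant PBS, 7.51 ± 2.28 in vector anti-PD-1 and 8.62 ± 1.64 FPKM in vector PBS tumours (SD, n = 5 each). In the same order of groups, mouse Chek2 averaged 5.03 ± 1.32, 6.44 ± 1.34, 5.01 ± 1.34 and 6.43 ± 1.23 FPKM. The levels of either gene check no mutation, since these files hold no sequence.

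Sequencing depth is unknown. The summed FPKM of a library ran from 328740 to 566913, and 3 libraries stood apart from the other 17: replicates 1 and 2 of mutant anti-PD-1 and replicate 1 of vector anti-PD-1 had mean Spearman correlations to the other libraries of 0.748 to 0.835, against 0.899 to 0.930. The last of the 3 also had the highest summed FPKM, with 8.40% of it in small RNA genes. Results that rest on these libraries are given with and without them. Of 8 epithelial markers, 5 (Krt7, Epcam, Cdh1, Cldn4 and Cldn7) did not pass the filter, with Epcam and Cdh1 at most 0.840 and 0.638 FPKM in any tumour, and Krt8, Krt18 and Krt19 passed it.

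Cells answer low oxygen through hypoxia-inducible factors (HIFs), pairs of an oxygen-sensitive alpha subunit and the stable partner ARNT. When oxygen is present, prolyl hydroxylases mark the alpha subunit for destruction by the VHL ubiquitin ligase. When oxygen is short, the factor enters the nucleus, binds short DNA elements and raises genes for glucose uptake, glycolysis, mitochondrial removal and vessel growth. Rapidly growing tumours often contain poorly perfused regions, so RNA of these genes is widely read as a hypoxia score, although MYC and other growth signals also drive several of the glycolytic genes.

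The letters that HIFs recognise, ACGTG or GCGTG, were looked for on both strands of the 250 bases before each RefSeq gene start (GRCm38.p6). Of the 10 genes, 9 had such a window, all but Ndrg1, and 9 of 9 held a match in at least 1 window, 8 of them to ACGTG, against 41.5% and 18.5% of 27025 genes. Windows rich in G and C hold these letters more often: of the windows at or above the median GC content of the set (63.4%), 66.4% held a match. The stretches below are shown because they hold several matches close together in genes whose RNA moved together between tumours, as described further on. Each is read 5′ to 3′ on the gene's strand, and capitals mark ACGTG or GCGTG, or the same letters on the other strand (CACGT or CACGC). Where CACGTG is printed, the palindrome matches once on each strand.
Pgk1: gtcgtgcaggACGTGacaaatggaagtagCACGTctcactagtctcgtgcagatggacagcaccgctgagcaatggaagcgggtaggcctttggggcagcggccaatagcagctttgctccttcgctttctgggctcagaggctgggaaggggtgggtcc
Ldha: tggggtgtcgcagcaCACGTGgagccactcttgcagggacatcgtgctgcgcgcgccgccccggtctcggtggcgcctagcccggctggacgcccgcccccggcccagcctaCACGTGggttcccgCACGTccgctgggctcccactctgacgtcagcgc
Bnip3: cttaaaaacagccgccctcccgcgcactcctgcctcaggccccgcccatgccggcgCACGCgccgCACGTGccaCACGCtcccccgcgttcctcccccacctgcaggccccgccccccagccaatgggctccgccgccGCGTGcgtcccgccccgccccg
The Pgk1 stretch is chrX:106186940-106187099 on the plus strand, the Ldha stretch chr7:46845644-46845803 on the plus strand and the Bnip3 stretch chr7:138909520-138909679 on the minus strand. In the full windows around these stretches Ldha and Bnip3 had 5 matching positions each and Pgk1 had 2, with a palindrome counted once on each strand. A second window of Ldha had 1 matching position. A match describes letters and does not show that a factor binds there.

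The 10 genes covered a wide range of levels. The median FPKM over 20 tumours was 385 for Pgk1 and 384 for Ldha, then 76.9 for Ndrg1, 71.9 for Bnip3, 45.3 for Slc2a1, 37.6 for Vegfa, 13.4 for Hk2, 9.45 for Pdk1, 7.03 for Ankrd37 and 2.17 for Egln3. Some neighbours in this order did not separate: Pgk1 was above Ldha in 13 of 20 tumours and Ndrg1 above Bnip3 in 9 of 20. Slc2a1 was above Vegfa in 18, Hk2 above Pdk1 in 17, and Pdk1 above Ankrd37 and Ankrd37 above Egln3 in 19 each. Ldha exceeded Ndrg1, Bnip3 exceeded Slc2a1 and Vegfa exceeded Hk2 in 20 of 20.

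**Figure D1:**
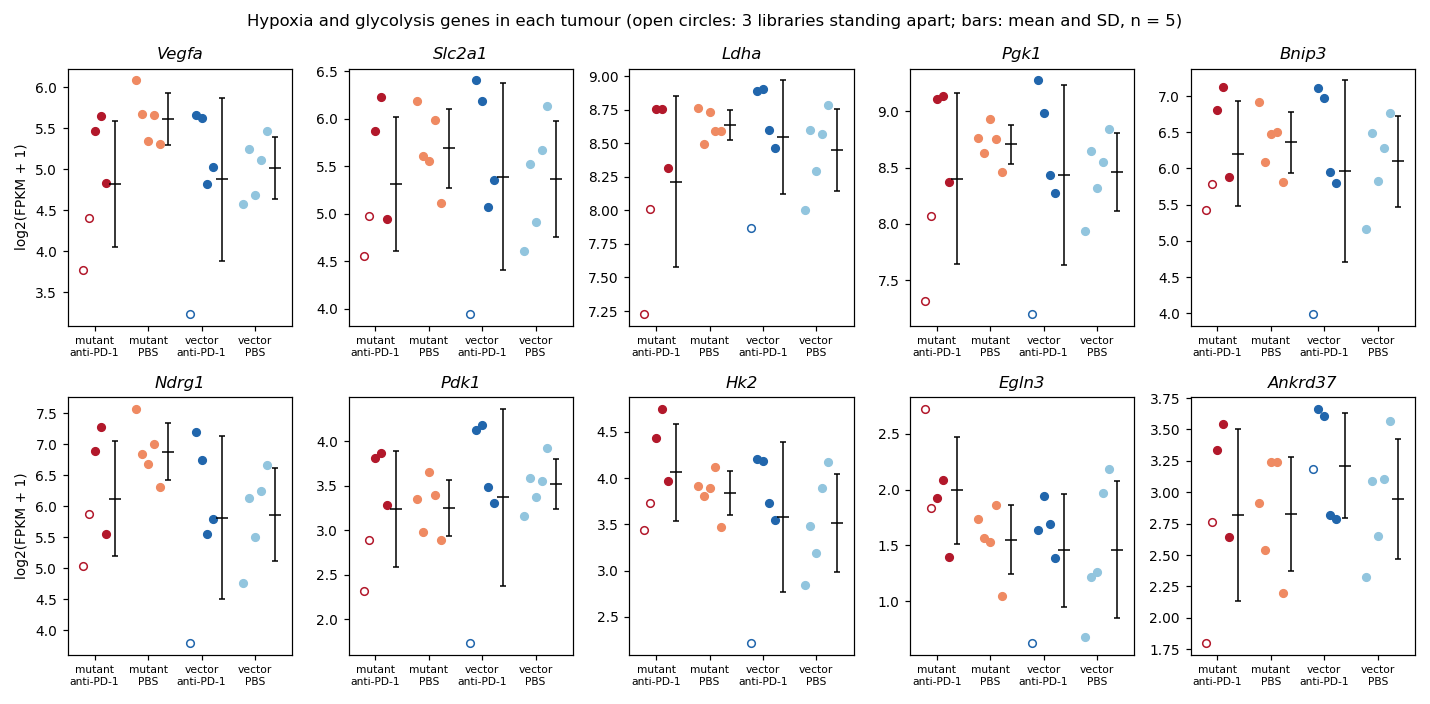
Expression of the 10 genes in each of 20 tumours, as log2(FPKM + 1) on the vertical axis, by group; each circle is 1 tumour, open circles are the 3 libraries standing apart, and the bar to the right of a group is its mean with the SD (n = 5). For each gene the values of mutant anti-PD-1 tumours overlap those of mutant PBS tumours, and the same holds for vector anti-PD-1 against vector PBS and for mutant against vector tumours under either treatment. The share of all tested genes with such overlap was not computed, so the overlap only describes these genes.

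Glucose enters cells through carriers, of which Slc2a1 (GLUT1; chr4:119108711-119137983, mm10) is the broadly expressed one. In replicates 1 to 5, Slc2a1 had 22.5, 30.5, 57.4, 74.0 and 29.7 FPKM in mutant anti-PD-1 tumours, against 71.9, 47.7, 45.8, 62.4 and 33.6 FPKM in mutant PBS tumours. In vector tumours the values were 14.4, 83.6, 71.6, 32.5 and 39.8 FPKM with anti-PD-1, against 23.3, 44.8, 29.1, 49.7 and 69.1 FPKM with PBS. Every group thus spanned at least 2.14 times from its lowest to its highest tumour, and all groups overlapped.

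Hk2 (hexokinase 2; chr6:82725025-82774454), which phosphorylates the glucose that has entered, was at 9.86 to 25.8 FPKM in mutant anti-PD-1, 10.1 to 16.3 in mutant PBS, 3.64 to 17.4 in vector anti-PD-1 and 6.19 to 17.1 FPKM in vector PBS tumours. Its lowest value over all tumours came from the vector anti-PD-1 library standing apart.

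Pgk1 (phosphoglycerate kinase; chrX:106187100-106203699), an ATP-yielding step of glycolysis, had 159, 268, 551, 563 and 331 FPKM in mutant anti-PD-1 tumours, against 432, 396, 486, 431 and 351 FPKM in mutant PBS tumours. In vector tumours it had 146, 619, 505, 345 and 308 FPKM with anti-PD-1, against 244, 399, 318, 374 and 457 FPKM with PBS. The highest and the lowest tumours of the series were thus both in anti-PD-1 groups. Intronless copies of this gene elsewhere in the genome, such as Pgk1-rs7, had 12.6 to 119 FPKM, and how reads that match several genes were counted is not given in the sources used here, so the level of Pgk1 is uncertain.

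Ldha (lactate dehydrogenase A; chr7:46841475-46855627) turns pyruvate into lactate. It had 149, 257, 432, 432 and 317 FPKM in mutant anti-PD-1 tumours, against 433, 360.5, 425, 384 and 385 FPKM in mutant PBS tumours. In vector tumours it had 232, 473, 478, 386 and 353 FPKM with anti-PD-1, against 256, 386, 313, 379 and 439 FPKM with PBS. Mutant PBS was the tightest group, at 1.20 times between its lowest and highest tumour, and 3 of the 5 mutant anti-PD-1 tumours lay below all of it, whereas the other 2 lay inside its range.

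Pdk1 (chr2:71873224-71903858) encodes a kinase that switches off pyruvate dehydrogenase and so keeps pyruvate out of the mitochondrion. Its levels were 3.96 to 13.6 FPKM in mutant anti-PD-1, 6.42 to 11.6 in mutant PBS, 2.32 to 17.1 in vector anti-PD-1 and 7.91 to 14.2 FPKM in vector PBS tumours. Bnip3 (chr7:138890836-138909519), a mitochondrial protein that promotes the removal of mitochondria by autophagy, had 42.0 to 139 FPKM in mutant anti-PD-1, 55.3 to 120 in mutant PBS, 14.9 to 138 in vector anti-PD-1 and 34.8 to 107 FPKM in vector PBS tumours. For both genes the widest group was vector anti-PD-1, whose library standing apart was the lowest of all 20.

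Vegfa (chr17:46016993-46032369), the secreted factor that drives vessel growth through KDR and FLT1, had 12.7, 20.2, 43.2, 49.0 and 27.5 FPKM in mutant anti-PD-1 tumours, against 66.9, 49.9, 39.7, 49.6 and 38.4 FPKM in mutant PBS tumours. In vector tumours it had 8.41, 49.8, 48.4, 27.2 and 31.7 FPKM with anti-PD-1, against 22.8, 36.8, 24.8, 33.6 and 43.2 FPKM with PBS. The 3 lowest mutant anti-PD-1 tumours were below all mutant PBS tumours, and 2 of those 3 were libraries standing apart.

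Ndrg1 (chr15:66929318-66969640), a stress-responsive gene of differentiation and lipid handling that is strongly induced by low oxygen in human cells, had 31.7, 57.4, 117, 153 and 46.1 FPKM in mutant anti-PD-1 tumours, against 189, 114, 102, 128 and 78.5 FPKM in mutant PBS tumours. In vector tumours it had 12.9, 145, 107, 45.8 and 54.4 FPKM with anti-PD-1, against 26.2, 69.5, 44.5, 75.3 and 101 FPKM with PBS. Of the 10 genes it spanned the widest range, 14.6 times from its lowest to its highest tumour. Mutant PBS tumours were mostly above vector PBS tumours, but the lowest of them, at 78.5 FPKM, was below the highest vector PBS tumour.

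Egln3 (PHD3; chr12:54178981-54203860), a prolyl hydroxylase that is itself induced by HIF and so limits it, had 5.60, 2.56, 2.79, 3.26 and 1.64 FPKM in mutant anti-PD-1 tumours, against 2.34, 1.96, 1.89, 2.63 and 1.07 FPKM in mutant PBS tumours. In vector tumours it had 0.542, 2.12, 2.84, 2.22 and 1.61 FPKM with anti-PD-1, against 0.596, 1.33, 1.40, 2.91 and 3.55 FPKM with PBS. Replicate 1 of mutant anti-PD-1 held the highest Egln3 value of all 20 tumours and the lowest value of its group for the other 9 genes. Ankrd37 (chr8:45996902-46005707), a small ankyrin-repeat protein whose gene is a HIF target in human cells, had 2.48 to 10.7 FPKM in mutant anti-PD-1, 3.59 to 8.45 in mutant PBS, 5.90 to 11.7 in vector anti-PD-1 and 4.02 to 10.9 FPKM in vector PBS tumours.

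With the antibody in mutant tumours 0 of the 10 genes passed the threshold, while 30.5% of all tested genes did. Vegfa averaged 30.5 ± 15.3 FPKM in mutant anti-PD-1 tumours and 48.9 ± 11.4 FPKM in mutant PBS tumours (SD, n = 5 each), a log2 fold change of -0.90 ± 0.37 (SE; 95% interval -1.67 to -0.13; unadjusted p = 0.0245, limma adjusted p = 0.0714). Ldha averaged 317 ± 121 FPKM against 397 ± 30.5 FPKM, a log2 fold change of -0.50 ± 0.23 (limma adjusted p = 0.11). These were the only 2 of the 10 with an unadjusted p under 0.05, against 41.6% of all tested genes. Ndrg1 had a fold change as large as that of Vegfa, -0.88, but with an SE of 0.51 (limma adjusted p = 0.21).

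Over the 10 genes, 8 estimates were negative and 2 positive (Hk2 at 0.12 and Egln3 at 0.41), with a median log2 fold change of -0.32 against -0.10 over all tested genes. The estimates followed the libraries standing apart: without those 3, Vegfa was at -0.36, Ldha at -0.08, and Pgk1 and Pdk1 turned to 0.16 and 0.38. The identifier in the sample titles is M and a number for 11 animals and a number alone for 9, and the fit has a term for it. The labels do not say what it marks. In the first style alone the Vegfa fold change was -1.61 (limma adjusted p = 0.0714), and in the second alone it was -0.17 (limma adjusted p = 0.682). The 2 mutant anti-PD-1 libraries of the first style are the 2 that stood apart, so style and library cannot be told apart in that group.

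The Vegfa call depended on single libraries. It passed the threshold in 5 of 32 alternatives: with quantile normalization (limma adjusted p = 0.0479) and without replicate 1 of vector anti-PD-1 (0.0176), replicate 2 of vector anti-PD-1 (0.0440), replicate 5 of mutant PBS (0.0466) or replicate 4 of mutant anti-PD-1 (0.0479). Over all 32 its adjusted p ran from 0.0176 to 0.682, and the fold change stayed negative in each.

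In vector tumours 0 of the 10 genes passed for the antibody, as did 0% of all tested genes (limma), with 426 genes (3.05%) at an unadjusted p under 0.05 and 5 genes passing when libraries were weighted by their quality. The median log2 fold change of the set was -0.02, against -0.08 over all tested genes. The estimates lay between -0.15 (Pdk1) and 0.26 (Ankrd37). The 95% interval of Slc2a1 ran from 0.579 to 1.78 times and that of Ndrg1 from 0.460 to 2.03 times. Without the 3 libraries the 10 estimates were all positive, from 0.17 to 0.43, and 0 of 10 passed.

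Between the 2 anti-PD-1 groups, 0 of 10 genes passed for mutant against vector tumours while 32.9% of all tested genes did. Egln3 had the highest estimate, with 3.17 ± 1.48 FPKM in mutant and 1.87 ± 0.860 FPKM in vector tumours (SD, n = 5 each) and a log2 fold change of 0.50 ± 0.29 (SE, limma adjusted p = 0.21). It was -0.01 without the 3 libraries. Ankrd37 had the lowest estimate, with 6.65 ± 3.25 FPKM in mutant and 8.57 ± 2.74 FPKM in vector tumours and a log2 fold change of -0.46 ± 0.30 (limma adjusted p = 0.25). It was -0.12 without the 3 libraries, -0.94 in the M style alone and -0.02 in the number-only style alone.

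Under PBS, 0 of 10 genes passed for mutant against vector tumours, and 1.45% of all tested genes did. Here 8 of the 10 estimates were positive, with a median of 0.25 against 0.00 over all tested genes. Ndrg1 averaged 122 ± 41.4 FPKM in mutant PBS tumours and 63.3 ± 28.8 FPKM in vector PBS tumours (SD, n = 5 each), 2.02 times with a 95% interval of 0.964 to 4.24 (limma adjusted p = 0.50). Vegfa averaged 48.9 ± 11.4 FPKM in mutant and 32.2 ± 8.48 FPKM in vector tumours, 1.51 times with an interval of 0.893 to 2.57 (limma adjusted p = 0.64). Neither PBS group holds a library standing apart, but the spread was estimated from all groups together. Without the 3 libraries the fold changes of Ndrg1 and Vegfa were the same, with limma adjusted p = 0.13 and 0.1002. In that fit 0 of 10 genes passed, and 1643 of all tested genes did, against 203 with all libraries. Within identifier styles the direction was not the same. In the M style alone 9 of 10 estimates were positive, with Ndrg1 at 1.56 and Vegfa at 0.87, and in the number-only style alone 8 of 10 were negative, with Ndrg1 at 0.20, Vegfa at 0.19 and Egln3 at -0.62. None of these passed. The test of whether the response to the antibody differed between mutant and vector tumours called 0 of 10 genes and 9.35% of all tested genes, and its lowest adjusted p in the set was 0.25, for Ldha (-0.59 ± 0.32, limma).

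**Figure D2:**
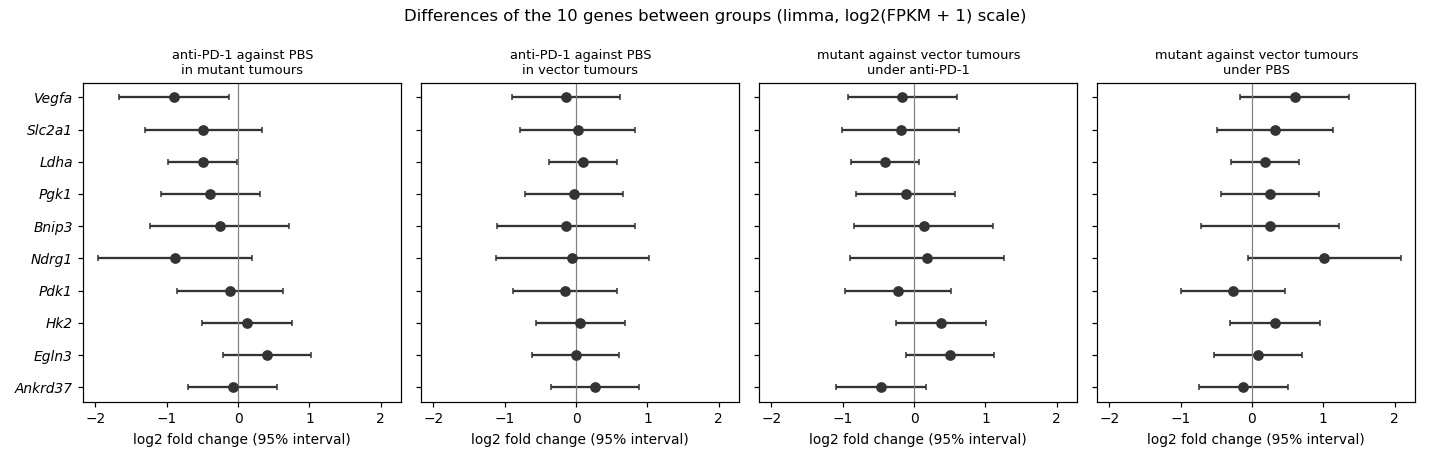
Log2 fold changes of the 10 genes, on the log2(FPKM + 1) scale, for 4 comparisons of groups; points are limma estimates and bars their 95% intervals, not adjusted for the number of genes. Only the intervals of Vegfa and Ldha for anti-PD-1 against PBS in mutant tumours exclude 0, and neither passed after adjustment.

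Tumours of the same group differed widely in the 10 genes. The SD of log2(FPKM + 1) within groups, pooled over the 4 groups, had a median of 0.608 over the 10 genes, from 0.415 for Ldha to 0.917 for Ndrg1, against 0.319 over all tested genes. That is above 90.5% of tested genes. The share of a gene's variance that lies between groups had a median of 12.8% in the set and 31.7% over all tested genes. Without the 3 libraries the spread was 0.406 in the set against 0.181 over all genes, still above 90.0% of them, and the between-group share was 19.3% against 39.5%. The fold changes had a median SE of 0.34 in the set and 0.19 over all tested genes for anti-PD-1 against PBS in mutant tumours.

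The spread was unequal between groups. The median SD of the 10 genes was 0.693 in mutant anti-PD-1, 0.315 in mutant PBS, 0.897 in vector anti-PD-1 and 0.504 in vector PBS tumours, and over all tested genes it was 0.278, 0.172, 0.400 and 0.166 in the same groups. By these medians both anti-PD-1 groups, which hold the 3 libraries standing apart, were wider than their PBS groups. The medians were not computed without those libraries, so the difference may rest on them. In vector anti-PD-1, replicate 1 lay at a median of -1.40 from its group mean over the 10 genes, and the other tumours at -0.07 to 0.78. Vector PBS tumours lay at -0.65 to 0.64. In vector tumours 2 genes went the other way, Egln3 with an SD of 0.505 under anti-PD-1 and 0.611 under PBS, and Ankrd37 with 0.417 and 0.476.

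The same tumours were high or low for nearly all of the 10 genes. In vector PBS, replicate 1 was the lowest tumour and replicate 5 the highest for 10 of 10 genes. In mutant PBS, replicate 5 was the lowest for 9 genes, and the highest tumour was replicate 1 for 5 of the 10. In mutant anti-PD-1, replicate 1 was the lowest for 9 genes and replicate 4 the highest for 8, and in vector anti-PD-1, replicate 1 was the lowest for 9 and replicate 2 the highest for 7. The distance between the extremes of vector PBS, where no library stood apart, was 3.85 times for Ndrg1, 3.09 for Bnip3, 2.97 for Slc2a1 and 1.72 for Ldha.

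**Figure D3:**
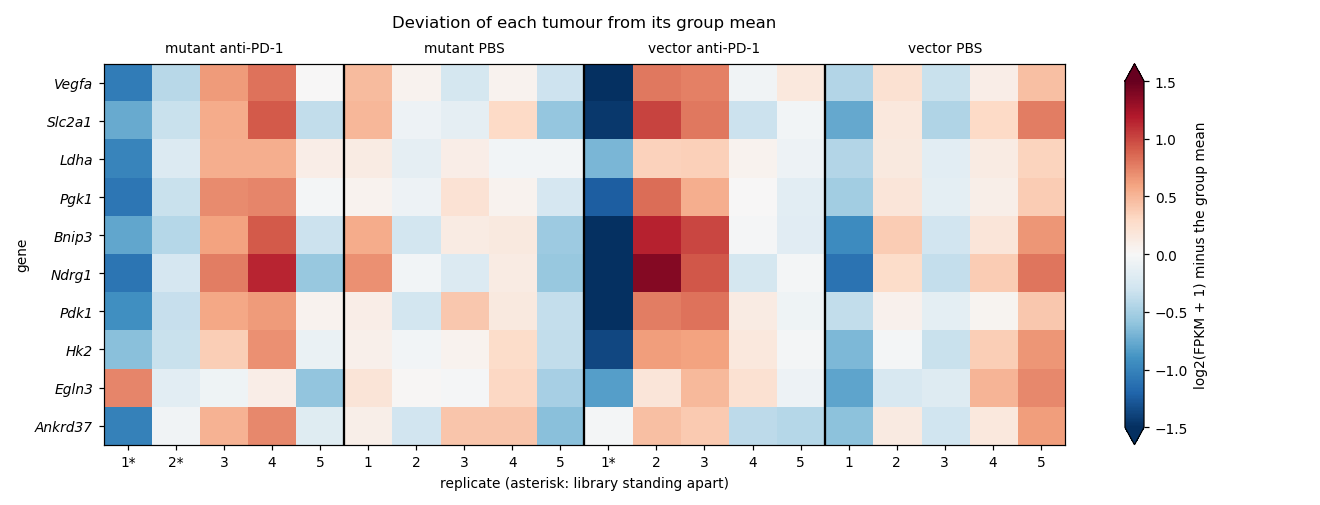
Deviation of log2(FPKM + 1) from the group mean for the 10 genes (rows) in each tumour (columns, by group and replicate; asterisks mark libraries standing apart); red is above and blue below the group mean, and the scale is cut at 1.5 in both directions. Columns tend to hold 1 colour: vector PBS replicate 1 is below its group mean for 10 of 10 genes and replicate 5 above it for 10 of 10.

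With group means removed, the Pearson correlation of 2 genes of the set over 20 tumours had a median of 0.897 over 45 pairs, from 0.236 (Ldha with Egln3) to 0.988 (Slc2a1 with Ndrg1). The median over all pairs of tested genes was 0.0986, and 22.7% of them were above 0.5, against 40 of the 45 pairs of the set. These correlations are descriptions: the points share libraries, and a library standing apart moves many genes at once. Over the 17 other tumours the median was 0.892, with the lowest pair at 0.695, and 45 of 45 pairs were above 0.5. Egln3 was the loosest member, with a median correlation to the other 9 of 0.435, or 0.769 over 17 tumours. Leaving out replicate 1 of mutant anti-PD-1 alone put the lowest pair at 0.518, and leaving out replicate 1 of vector anti-PD-1 alone put it at 0.0229.

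Ranked against 13981 other genes, most of the set found each other near the top. Of the other 9 genes, 7 were in the top 1% (140 genes) for Pgk1, 6 each for Vegfa, Slc2a1, Bnip3, Ndrg1 and Hk2, 4 each for Pdk1 and Ankrd37, 3 for Ldha and 0 for Egln3. Over 17 tumours this was 8 of 9 for Pgk1, Bnip3, Ldha and Hk2, 7 for Slc2a1, Ndrg1, Pdk1 and Ankrd37, 3 for Vegfa and 1 for Egln3. With the identifier style or a skeletal muscle score removed, another pseudocount, libraries rescaled to equal totals without mitochondrial and small RNA genes, or ranks in place of values, the median correlation stayed between 0.875 and 0.923.

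**Figure D4:**
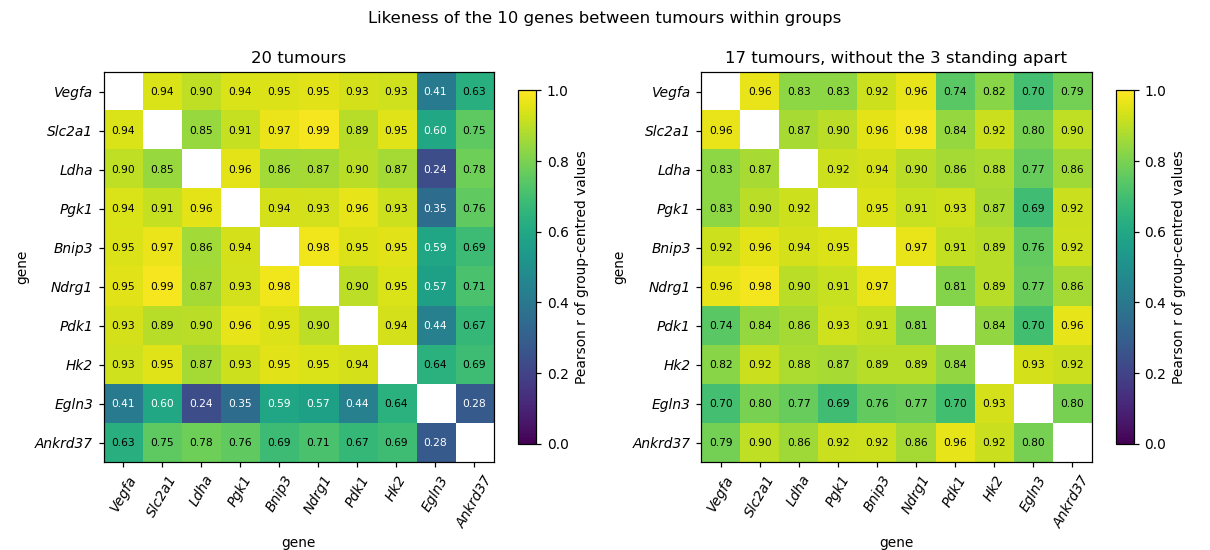
Pearson correlations of group-centred log2(FPKM + 1) between each pair of the 10 genes, over 20 tumours and over the 17 without the libraries standing apart. Over 20 tumours the 8 lowest pairs all hold Egln3, whose correlations run from 0.236 to 0.640, and all 45 pairs are above 0.5 over 17 tumours.

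The genes most like the set were sought among all tested genes by their median correlation to the 10. Over 20 tumours the closest 10 were Ero1l (0.953), Tiparp (0.950), Kdm4b (0.935), Gm5537, Pgk1-rs7, Gm6560, Gm6532, R3hdm1, Itprip and Fam129b (0.918). Ero1l, an oxidase of protein folding in the endoplasmic reticulum, and the histone demethylase Kdm4b are known HIF targets, and Tiparp is a mono-ADP-ribosyltransferase. The 4 genes from Gm5537 to Gm6532 are annotated as pseudogenes and may carry reads of the genes they were copied from. In all, 2042 genes outside the set had a median correlation above 0.7 (14.6% of them), but 454 (3.25%) over 17 tumours. Over those 17 the closest were Tpi1 (0.923), which encodes a glycolytic isomerase, and the cyclin gene Ccng2 (0.918), and of the closest 100 genes 18 belonged to the lists of other HIF targets and other glycolysis genes, against 11 over 20 tumours.

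Of 33 other HIF targets, 31 were tested. Their median correlation to the 10 genes was 0.735, and 0.792 over 17 tumours, against 0.283 and -0.02 over all tested genes. Besides Ero1l, Kdm3a (0.914), P4ha1 (0.913), a collagen prolyl hydroxylase, and Bnip3l (0.883), a relative of Bnip3, followed the set closely, whereas Plin2, a lipid droplet coat protein, was at -0.15 (0.685 over 17 tumours) and Lox, a collagen cross-linking enzyme, at 0.0478 (0.264). Car9, the membrane carbonic anhydrase often used to mark hypoxic tumour cells, followed at 0.852 and averaged 10.1 ± 6.68 FPKM in mutant anti-PD-1, 7.23 ± 4.35 in mutant PBS, 15.1 ± 11.6 in vector anti-PD-1 and 10.4 ± 4.99 FPKM in vector PBS tumours (SD, n = 5 each).

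With the antibody in mutant tumours, 2 of these 31 rose and 0 fell, against 30.5% of all tested genes called in either direction. Lox averaged 29.7 ± 27.6 FPKM in mutant anti-PD-1 and 5.92 ± 4.06 FPKM in mutant PBS tumours (log2 fold change 1.83 ± 0.63 SE, limma adjusted p = 0.0350). Plin2 averaged 92.2 ± 81.4 FPKM and 34.9 ± 8.71 FPKM in the same groups (1.06 ± 0.38 SE, limma adjusted p = 0.0405). Both calls were lost without replicate 1 or replicate 2 of mutant anti-PD-1, and without several single mutant PBS tumours (1, 2, 4 or 5 for Lox and 2, 3, 4 or 5 for Plin2). Without the 3 libraries the fold changes were 0.39 and 0.10, and 1 gene of the list rose, Ddit4, which encodes an mTORC1 inhibitor. After rescaling the fold changes were 2.01 for Lox and 1.11 for Plin2, with adjusted p = 0.0539 and 0.0620. In the M style alone they were 3.47 and 2.18, and in the number-only style alone 0.65 and 0.20 (adjusted p = 0.193 and 0.645). Between mutant and vector tumours under the antibody 3 of the 31 rose and 0 fell, against 32.9% of all tested genes called. These were Plin2 (1.51 ± 0.38), Ddit4 (0.97 ± 0.31) and Lox (1.73 ± 0.63), with limma adjusted p = 0.00522, 0.0227 and 0.0432. Without the 3 libraries they were at 0.47, 0.93 and 0.05, with limma adjusted p = 0.194, 0.0218 and 0.963. Ddit4 was not called in the M style alone (adjusted p = 0.193). The other contrasts called 0 of the 31.

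Of 23 other glycolysis genes, 22 were tested, with a median correlation to the set of 0.643 and 0.555 over 17 tumours. Pkm (0.877) and Pfkl (0.876), which encode pyruvate kinase and the liver phosphofructokinase, were the closest, and Aldoa (0.830), Gpi1 (0.826) and Tpi1 (0.772) were near. With the antibody in mutant tumours 6 rose and 2 fell, a share near the 30.5% of all tested genes called. Among the 6, Slc2a3 (GLUT3) averaged 3.07 ± 1.48 FPKM in mutant anti-PD-1 and 0.531 ± 0.233 FPKM in mutant PBS tumours (log2 fold change 1.38 ± 0.18 SE, limma adjusted p = 3.28e-05), and Hk3, a hexokinase of myeloid cells, 36.1 ± 5.97 and 7.93 ± 5.65 FPKM (2.27 ± 0.34, limma adjusted p = 9.82e-05).

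The rises of Slc2a3 and Hk3 held in each alternative that could test them, 31 and 32 of them. Slc2a3 did not pass the stricter filter of 1 FPKM in 10 libraries, and it averaged under 1 FPKM in mutant PBS tumours. The filter used can be met by mutant anti-PD-1 tumours alone, which favours genes high there. The correlations of Slc2a3 and Hk3 to the 10 genes were 0.0815 and 0.193, or 0.524 and 0.170 over 17 tumours. Pfkfb4, which encodes a regulator of phosphofructokinase, rose by 0.92 ± 0.22 (limma adjusted p = 0.00427) and Ldhb by 1.56 ± 0.37 (limma adjusted p = 0.00391), the second not past the threshold without the 3 libraries (adjusted p = 0.123). Ldhb, like Slc2a3, did not pass the stricter filter. The other 2 that rose were Pfkfb3 and Aldoc, and those that fell were the lactate carrier Slc16a1 and Eno1. Without the 3 libraries 5 rose and 0 fell. Between mutant and vector tumours under the antibody 6 rose and 1 fell, against 32.9% of all tested genes called. The difference of the responses called Slc2a3 (1.44 ± 0.26, limma adjusted p = 0.00392), in each of the 31 alternatives that could test it, and Hk3 (1.59 ± 0.48, limma adjusted p = 0.0438), in 11 of 32. The Hk3 difference was at 1.34 without the 3 libraries (adjusted p = 0.158) and was not called in 14 of the 20 fits without 1 library. In vector tumours with the antibody, and between mutant and vector tumours under PBS, 0 of the 22 passed.

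Of 14 HIF subunits and regulators, 12 were tested. Hif1a, the oxygen-regulated alpha subunit, averaged 38.7 ± 4.70 FPKM in mutant anti-PD-1, 25.1 ± 2.09 in mutant PBS, 22.8 ± 8.61 in vector anti-PD-1 and 24.6 ± 2.02 FPKM in vector PBS tumours (SD, n = 5 each). It was higher in mutant than in vector tumours under the antibody (log2 fold change 0.81 ± 0.23 SE, limma adjusted p = 0.0110; 0.39 and 0.0221 without the 3 libraries; 0.31 and 0.0994 in the number-only style alone). HIF-1 alpha is controlled mainly through its protein, which these files do not measure. Against mutant PBS tumours Hif1a did not pass (0.57 ± 0.23, limma adjusted p = 0.0642). There 1 of the 12 tested genes rose and 0 fell, against 30.5% of all tested genes called. It was Epas1 (HIF-2 alpha), at 13.01 ± 12.25 FPKM in mutant anti-PD-1 and 3.03 ± 0.796 FPKM in mutant PBS tumours (1.48 ± 0.37, limma adjusted p = 0.00597). Without the 3 libraries Epas1 was at 0.49 (limma adjusted p = 0.0577).

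Between mutant and vector tumours under the antibody Epas1 (1.60 ± 0.37) and Vhl (0.61 ± 0.14) also rose and Eloc, a subunit of the VHL ligase, fell by 0.46 on the log2 scale (limma adjusted p = 0.00304, 0.00299 and 0.00786). With Hif1a, 3 of the 12 tested genes rose and 1 fell, near the 32.9% of all tested genes called. In the M style alone Vhl was at 0.47 and Eloc at -0.55 (adjusted p = 0.136 and 0.106), and after rescaling Eloc was at -0.28 (adjusted p = 0.0621). Epas1 was at 0.39 in the number-only style alone (adjusted p = 0.0833) and at 0.48 without the 3 libraries (adjusted p = 0.0631). Egln1, the main oxygen-sensing hydroxylase, followed the 10 genes at 0.912 and passed in no comparison, at 30.8 ± 10.2 FPKM in mutant anti-PD-1, 34.1 ± 5.45 in mutant PBS, 31.82 ± 11.97 in vector anti-PD-1 and 27.0 ± 7.44 FPKM in vector PBS tumours.

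**Figure D5:**
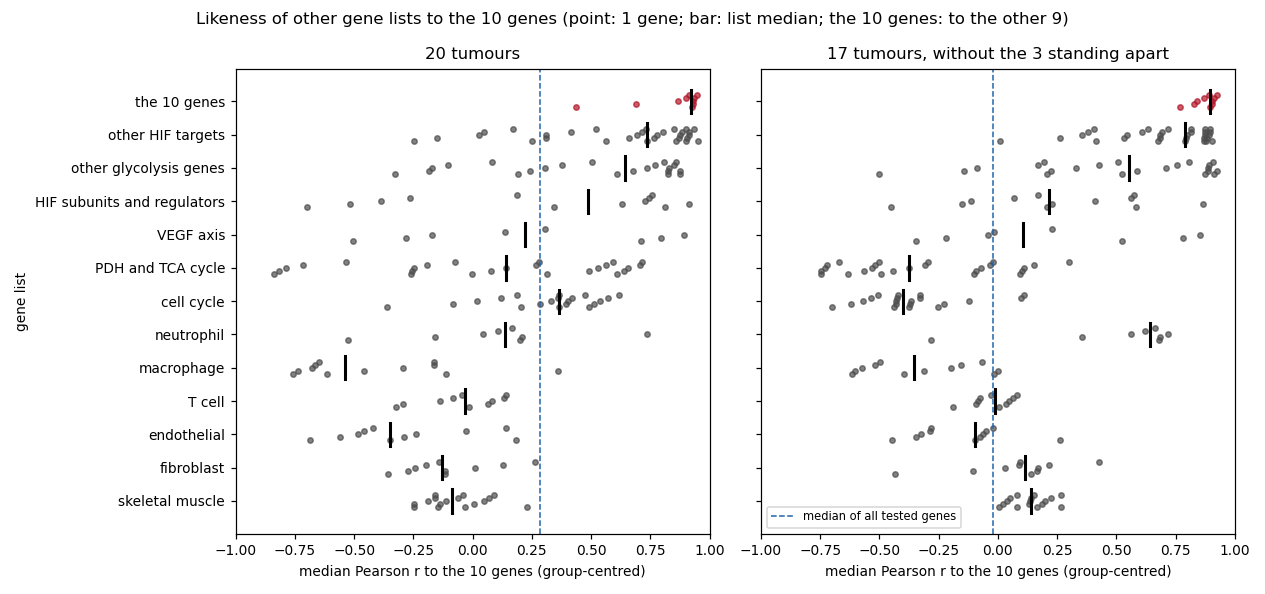
Median Pearson correlation of each gene of 12 other lists, and of each of the 10 genes, to the 10 genes, with group means removed, over 20 tumours (left) and over the 17 without the libraries standing apart (right); bars are list medians and the dashed line is the median of all tested genes. The other HIF targets have medians of 0.735 and 0.792, and the neutrophil markers 0.137 and 0.644.

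Of 11 genes of the VEGF axis other than Vegfa, 8 were tested, and 3 rose with the antibody in mutant tumours, near the 30.5% of all tested genes called. They were the lymphatic growth factor Vegfd (0.997 ± 0.265, limma adjusted p = 0.00861), the co-receptor Nrp1 (0.94 ± 0.26, limma adjusted p = 0.0108) and the receptor Kdr (0.86 ± 0.29, limma adjusted p = 0.0326). The Kdr call was lost without replicate 1 or 2 of mutant anti-PD-1 or without replicate 1, 2 or 4 of mutant PBS, and 0 of the 8 rose without the 3 libraries. Between mutant and vector tumours under the antibody 4 rose and 1 fell, against 32.9% of all tested genes called. The gene that fell was Vegfb, at 8.91 ± 1.29 FPKM in mutant and 16.3 ± 4.79 FPKM in vector tumours (-0.73 ± 0.16, limma adjusted p = 0.00220). It was at -0.63 without the 3 libraries (limma adjusted p = 0.0183). Among those that rose, Nrp1 (1.24), Kdr (1.01) and Vegfd (0.77) were at 0.76, 0.27 and 0.33 without the 3 libraries. None of these 3 genes passed there (limma adjusted p = 0.0611, 0.474 and 0.448). The difference of the responses called 1 of the 8, Nrp1 (1.30 ± 0.36, limma adjusted p = 0.0328), against 9.35% of all tested genes. It was called in 17 of 32 alternatives and not without the 3 libraries (0.81, adjusted p = 0.178). Placental growth factor Pgf (0.797) and Nrp2 (0.893) followed the 10 genes and passed in no comparison.

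Of 25 genes of pyruvate dehydrogenase, its kinases other than Pdk1 and the citrate cycle, 2 rose and 5 fell with the antibody in mutant tumours, near the 30.5% of all tested genes called. Among those that fell, Dld averaged 31.1 ± 3.38 FPKM in mutant anti-PD-1 and 42.7 ± 5.36 FPKM in mutant PBS tumours (-0.46 ± 0.11, limma adjusted p = 0.00585), and Pdhb 20.8 ± 3.30 and 28.1 ± 1.56 FPKM (-0.44 ± 0.12, limma adjusted p = 0.00946). Both encode subunits of the pyruvate dehydrogenase complex, and after rescaling their fold changes were -0.43 and -0.41 (adjusted p = 0.0791 and 0.1002). In the M style alone they were -0.59 and -0.62 (adjusted p = 0.0810 and 0.0526), and in the number-only style alone -0.34 and -0.28 (0.0108 and 0.0582). The kinase genes Pdk2 and Pdk4, relatives of Pdk1, were the 2 that rose, and both calls were absent without the 3 libraries, where 0 rose and 4 fell. Neither kinase gene passed the stricter filter of 1 FPKM in 10 libraries, and the filter used favours genes high in mutant anti-PD-1 tumours. Idh3g, Mdh2 and Pdha1 were the other 3 that fell. Between mutant and vector tumours under the antibody 3 of the 25 rose and 1 fell, against 32.9% of all tested genes called. Pdk2 (1.29 ± 0.31), Pdk4 (1.49 ± 0.38) and Ogdh (0.46 ± 0.15) rose, with limma adjusted p = 0.00373, 0.00620 and 0.0235. Mdh2 fell (-0.63 ± 0.20, limma adjusted p = 0.0249). None of these passed without the 3 libraries (limma adjusted p = 0.186, 0.0897, 0.468 and 0.154). The list's median correlation to the 10 genes was 0.141, and -0.38 over 17 tumours.

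Markers of several other cell types rose with the antibody in mutant tumours. In bulk tumour RNA, fewer cells of a type and less RNA per cell cannot be told apart. With the antibody in mutant tumours, 10 of 10 T cell markers, 10 of 12 macrophage markers, 10 of 11 endothelial markers and 10 of 10 fibroblast markers rose, and 6 of 20 cell cycle genes fell. Without the 3 libraries these were 10, 10, 1, 0 and 1. Over all tested genes 30.5% were called, near the share of the cell cycle genes. Of 8 tested neutrophil, 4 adipocyte and 16 skeletal muscle markers, 2, 1 and 0 rose and 0 fell. In vector tumours with the antibody, and between mutant and vector tumours under PBS, 0 genes of these lists passed. Of 12 T cell markers 10 were tested. The filter of 1 FPKM in 5 tumours can be met by mutant anti-PD-1 tumours alone, which favours markers high there. The count of T cell markers that rose could thus be set in part by the filter. The summed T cell markers were 104 to 162 FPKM in mutant anti-PD-1 and 2.08 to 49.4 FPKM in mutant PBS tumours. They were 3.67 to 13.3 FPKM in vector anti-PD-1 and 1.27 to 3.76 FPKM in vector PBS tumours. The summed macrophage markers were 1998 to 5179 FPKM in mutant anti-PD-1 and 482 to 1312 FPKM in mutant PBS tumours. The part of these cells in the values of the 10 genes was not tested.

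Between tumours of 1 group, the mean level of the macrophage markers had a median correlation to the 10 genes of -0.56, and -0.45 over 17 tumours, and that of the T cell markers -0.03 and -0.02. The mean level of 8 tested neutrophil markers had 0.120 over 20 tumours and 0.723 over 17. Their summed level was 33.7 to 637 FPKM in mutant anti-PD-1, 48.3 to 95.7 in mutant PBS, 39.4 to 96.6 in vector anti-PD-1 and 25.5 to 132 FPKM in vector PBS tumours, and the neutrophil marker Ly6g was at most 1.66 FPKM in any tumour. Skeletal muscle markers, which ran from 1.79 to 1961 FPKM in sum, were at -0.11 and 0.116. The summed FPKM of a library was at -0.68 and -0.42, so tumours with low values of the 10 genes tended to be libraries with a high total. Other measures changed sign without the 3 libraries. The mean Spearman correlation of a library to the others was at 0.716 and -0.19, and its small RNA share at -0.66 and 0.33. The mitochondrial share was at 0.25 and -0.32, and the mean level of the cell cycle genes at 0.39 and -0.39. The number of genes at 1 FPKM or more was at 0.50 and 0.25. The part of these measures in the spread was not tested.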

How the data were processed

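RNA of 20 CT26 tumours was sequenced. The authors deposited 1 value per gene and tumour, taken as FPKM: the file header names no unit, and per the submitters' processing notes Cuffnorm, FastQC, STAR 2.5 and DESeq were used on mm10, with no role or order given. Annotation, strandedness and the handling of multimapping reads: not given in the sources used here. Identifiers were matched to GENCODE vM21 symbols (55154 of 55335); of 2 identifiers for Aldoa the lower-numbered was used. Promoters are RefSeq sequences of GRCm38.p6.

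Values of 13982 genes (1 FPKM or more in 5 or more libraries) were modelled as log2(FPKM + 1) in limma 3.58.1 (R 4.3.3; eBayes with trend) from 4 group means and the identifier style. The spread was estimated from all groups together, and Benjamini-Hochberg adjustment ran over all tested genes in each of 5 contrasts. The pseudocount of 1 understates changes of genes at low levels. The fit was tested on simulated data. Depth is unknown, so no counting interval is given. Each library has its own identifier, but the labels do not describe separate cultures or experiments, so p-values measure only the spread between these tumours. Replicate numbers follow deposition order and only name a tumour.

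Spread and correlations were computed in Python 3.11.15 with numpy 2.4.6 and pandas 2.3.3 and have no test. The members and gene lists were chosen with earlier results of these data known. Named genes are the 10 members, of each other list up to 4 genes past the threshold with the smallest p, and the 10 genes most like the set; other list genes were named after their values were seen. The 32 alternatives per contrast are 20 fits without 1 library and 12 other settings.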

Additional observations from a re-analysis of the deposited data

How the results depend on the processing

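The count of members past the threshold was 0 in each of the 32 alternatives for 4 of the 5 contrasts. For anti-PD-1 against PBS in mutant tumours it was 1, Vegfa, with quantile normalization, and 0 to 1 when 1 library was left out. No other member passed in any of them: over members, contrasts and alternatives 1502 fold changes stayed within 1 SE and below the call, 93 moved further and 5, all Vegfa, became called. No called value changed sign. The median correlation between members stayed between 0.875 and 0.923 under the other settings and 0.889 and 0.920 when 1 library was left out. Their median spread of 0.608 became 0.406 without the 3 libraries standing apart, 0.767 after each library was rescaled without mitochondrial and small RNA genes, 0.711 with a pseudocount of 0.1, and 0.498 to 0.628 when 1 library was left out; these alternatives for the spread, those for the other lists, and the single libraries left out for the correlation, were chosen after seeing the data. The genes called over all tested genes ranged from 2659 to 6785 for the antibody in mutant tumours, 0 to 5 in vector tumours, 3208 to 6398 between mutant and vector tumours under the antibody, 12 to 2710 under PBS and 387 to 3214 for the difference of the responses. Rescaling moved the median log2 fold change of all genes to 0.18, against 0.00, between mutant and vector tumours under the antibody, and to -0.21, against -0.08, for the antibody in vector tumours, and quantile normalization put the first at -0.12. Counts of genes risen or fallen in the other 5 lists were within 1.5 times of those reported in 1418 cases and not in 182, and their named genes kept the call in 992 and lost it in 152. Many of the reported counts were 0, as were all of them for the antibody in vector tumours and under PBS. Counts that stayed at 0 are among the 1418, so that number says little about the counts above 0. No paired analysis was possible because the labels hold no replicate numbers that pair tumours across groups. Unknown depth limits low genes such as Egln3 most, and 5 tumours a group with this spread leave intervals wide: the 95% interval of Ndrg1 between mutant and vector PBS tumours ran from 0.964 to 4.24 times.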
